A study of Mus musculus with 17 samples.

Results

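Intergenic clusters of distal H3K27ac peaks in the mouse hypothalamus are described here: runs of at least 5 peaks that lie between protein-coding genes. They were chosen by the peak positions themselves. On the 19 autosomes, 34005 of 181187 peaks had their summit 10 to 200 kb outside the nearest protein-coding gene span of mouse RefSeq annotation (GRCm38.p6, the assembly called mm10), and neighbours with less than 12500 bp between them were joined. This gave 1977 clusters, which held 19199 peaks, or 56.5% of the eligible peaks (95% Wilson interval 55.9 to 57.0), out of 183678 peaks in the whole list. A cluster is named below by the coding genes on its left and right in genome order, which says nothing about which gene it acts on.

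The samples were 3 bulk CUT&Tag libraries of hypothalamus, titled as biological replicates and made with an antibody against H3K27ac. CUT&Tag tethers the Tn5 transposase to antibody-bound chromatin and sequences the fragments it releases. The labels used here give neither genotype, strain, age nor treatment, and there is no control group. A single peak list stands for the 3 samples, so no spread between animals exists, no depth is known and no test was made. All intervals are 95% Wilson intervals and cover counting error only.

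H3K27ac, acetylation of lysine 27 on histone H3, is placed by the acetyltransferases CBP and p300 and marks active promoters and active enhancers. Enhancers can lie far from the promoter they act on, and many act over intergenic distance. Dense groups of acetylated elements, often called super-enhancers or stretch enhancers, are known for lying near genes that define a cell's identity. The hypothalamus mixes many neuron types with astrocytes, tanycytes, oligodendrocytes, microglia and vessel cells, and a bulk profile sums over all of them.

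The sequences of the peaks need a genome, which was not used here. The windows that could be read are those around annotated starts of long noncoding RNAs (lncRNAs), from 250 bases before to 50 bases after the start, in RefSeq (GRCm38.p6). The 5 printed here carry a peak of one of the large clusters and span the range from CpG-poor to CpG-rich starts. They were picked after their values were seen. Each is written 5′ to 3′ on the strand of its gene, with every CpG dinucleotide in capitals.
2610035D17Rik, chr11:113201789-113202088, - strand: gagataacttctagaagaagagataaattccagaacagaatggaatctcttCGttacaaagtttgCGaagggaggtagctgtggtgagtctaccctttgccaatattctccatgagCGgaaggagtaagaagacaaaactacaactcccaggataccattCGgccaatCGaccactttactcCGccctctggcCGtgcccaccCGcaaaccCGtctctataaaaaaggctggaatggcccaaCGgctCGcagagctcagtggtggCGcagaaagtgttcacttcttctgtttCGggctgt
9330198N18Rik, chr2:30629309-30629608, + strand: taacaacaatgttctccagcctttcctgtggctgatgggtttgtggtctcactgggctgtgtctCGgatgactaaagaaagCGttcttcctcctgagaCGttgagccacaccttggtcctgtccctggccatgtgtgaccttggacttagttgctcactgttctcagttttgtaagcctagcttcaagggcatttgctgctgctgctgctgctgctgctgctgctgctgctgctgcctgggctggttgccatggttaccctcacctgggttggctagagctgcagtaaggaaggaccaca
9530059O14Rik, chr9:122572251-122572550, + strand: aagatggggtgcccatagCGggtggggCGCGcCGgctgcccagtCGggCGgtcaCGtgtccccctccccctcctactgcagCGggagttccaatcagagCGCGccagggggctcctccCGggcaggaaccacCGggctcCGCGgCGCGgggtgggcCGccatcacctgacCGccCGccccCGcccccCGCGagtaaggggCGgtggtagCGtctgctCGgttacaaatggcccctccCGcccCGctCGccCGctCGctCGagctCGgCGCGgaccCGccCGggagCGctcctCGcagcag
D130051D11Rik, chr15:85634346-85634645, + strand: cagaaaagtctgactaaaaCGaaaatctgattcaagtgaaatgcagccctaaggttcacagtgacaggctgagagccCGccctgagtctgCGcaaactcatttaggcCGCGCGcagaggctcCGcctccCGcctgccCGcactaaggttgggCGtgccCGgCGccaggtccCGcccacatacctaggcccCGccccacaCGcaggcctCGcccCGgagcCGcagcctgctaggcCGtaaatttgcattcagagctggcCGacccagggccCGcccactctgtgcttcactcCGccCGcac
Mir9-3hg, chr7:79499776-79500075, + strand: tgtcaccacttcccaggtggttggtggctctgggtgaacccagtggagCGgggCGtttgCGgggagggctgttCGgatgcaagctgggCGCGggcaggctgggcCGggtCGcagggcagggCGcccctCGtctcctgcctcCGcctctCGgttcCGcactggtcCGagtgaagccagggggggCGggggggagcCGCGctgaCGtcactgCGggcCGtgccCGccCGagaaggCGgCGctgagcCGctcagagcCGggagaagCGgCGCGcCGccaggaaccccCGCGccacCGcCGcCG
The window of 9330198N18Rik, in the Cstad/1700001O22Rik cluster, holds 3 CpGs and 54.0% G and C, and all 300 of its bases lie under a peak of 5.67-fold. That of 2610035D17Rik, an lncRNA of the Sox9 region, holds 13 CpGs, with 213 of its bases under a peak of 6.51-fold. The D130051D11Rik window holds 23 CpGs and lies under the strongest peak of the Wnt7b/Ppara cluster, at 13.7-fold. The starts of 9530059O14Rik and Mir9-3hg, the host transcript of a miR-9 gene, are CpG-rich, with 38 and 35 CpGs, under peaks of 5.04-fold and 4.76-fold. Peak height did not follow the CpG number in these 5 windows.

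Clusters also hold genes of microRNAs known from the nervous system. The mature forms below are from RefSeq (GRCm38.p6), 5′ to 3′, with the seed (bases 2 to 8) in capitals. They were picked, from the 66 mature forms of genes inside cluster spans, for what is known of them in the nervous system; Mir205, Mir193a and Mir29a are among those in clusters and not printed.
mmu-miR-9-5p: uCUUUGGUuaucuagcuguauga
mmu-miR-9-3p: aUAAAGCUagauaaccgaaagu
mmu-miR-137-3p: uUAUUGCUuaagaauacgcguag
mmu-miR-138-5p: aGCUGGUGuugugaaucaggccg
mmu-miR-129-5p: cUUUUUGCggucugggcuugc
mmu-let-7b-5p: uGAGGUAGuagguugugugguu
mmu-let-7c-5p: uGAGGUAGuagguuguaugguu
mmu-miR-181a-5p: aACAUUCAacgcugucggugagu
mmu-miR-181b-5p: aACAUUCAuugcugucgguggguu
The let-7b and let-7c forms share the seed GAGGUAG, and miR-181a and miR-181b share ACAUUCA. All 3 genes of miR-9, a microRNA that promotes neuronal differentiation, lay in clusters: Mir9-1 (chr3:88215598-88215686) in Mef2d/Rhbg, Mir9-2 (chr13:83738814-83738885) in Mef2c/Tmem161b and Mir9-3 (chr7:79505264-79505353) in Polg/Rhcg. A peak overlapped the first 2 of these hairpins, at 5.90-fold and 4.82-fold, and the nearest peak to Mir9-3 lay 77 bp away at 3.34-fold. Of the genes of miR-124, which is abundant in neurons, Mir124a-1 and Mir124a-2 lay in clusters under weak peaks of 2.87-fold and 1.57-fold. Mir124a-3, 10.3 kb from a coding gene, lay in none. Mir137, Mir138-1, Mir129-1 and Mir129-2 each lay in a cluster with a peak over the hairpin. These peaks were also weak at the first 3, at 2.82-fold, 2.68-fold and 2.16-fold, and 3.95-fold at Mir129-2. Mirlet7b and Mirlet7c-2 lay in the Wnt7b/Ppara cluster with no peak over either hairpin. The nearest peak, of 1.60-fold, lay 339 bp and 1045 bp away. Mirlet7a-1, Mirlet7d and Mirlet7f-1, which also lie in the eligible zone, were in no cluster. The other autosomal let-7 genes of the table lie outside that zone. In all, 49 miRNA genes lay in 34 clusters. They were 25.8% of the 190 autosomal miRNA genes in the eligible zone (20.1 to 32.4), while cluster spans made up 9.95% of the eligible sequence. A peak overlapped the hairpin of 19 of the 49, and of 9 of the 141 eligible miRNA genes in no cluster. Clusters were chosen for their peaks, so the 2 counts are not like for like. Entries that share a hairpin locus were counted apart. Gm25641, Gm51268 and Gm51285 lie within Mir9-1, Mir9-2 and Mir9-3, Gm51272 within Mir124a-2 and Mir129b within Mir129-2. The miRNA genes counted are therefore not independent of each other, which the interval ignores.

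The values that chose the clusters describe their size. The median cluster had 7 peaks (range 5 to 84), 4.99 kb covered by peaks (1.34 to 61.9 kb) and a span of 28.4 kb (4.39 to 312 kb). Peaks covered 17.97% of the summed span of 72.6 Mb. The median inner gap was 2621 bp. The rule admits only runs of 5 or more separate peaks, so a broad domain called as a single peak could not be a cluster. Whether a string of peaks is a broad domain split by the peak calling was not tested. Sizes were uneven: 144 clusters had 20 or more peaks and 74 spanned over 100 kb. The 20 largest held 5.69% of the covered sequence, the 100 largest 18.1%, and 495 clusters were needed to reach 50%. At the edge of the rule, 447 clusters had exactly 5 peaks, with a median of 3229 bp covered and a strongest peak of 5.35-fold. The 741 runs of 4 peaks, just outside it, had 2583 bp and 5.26-fold. The plot of ranked clusters shows no step between large and small ones below the first pair.

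**Figure D1:**
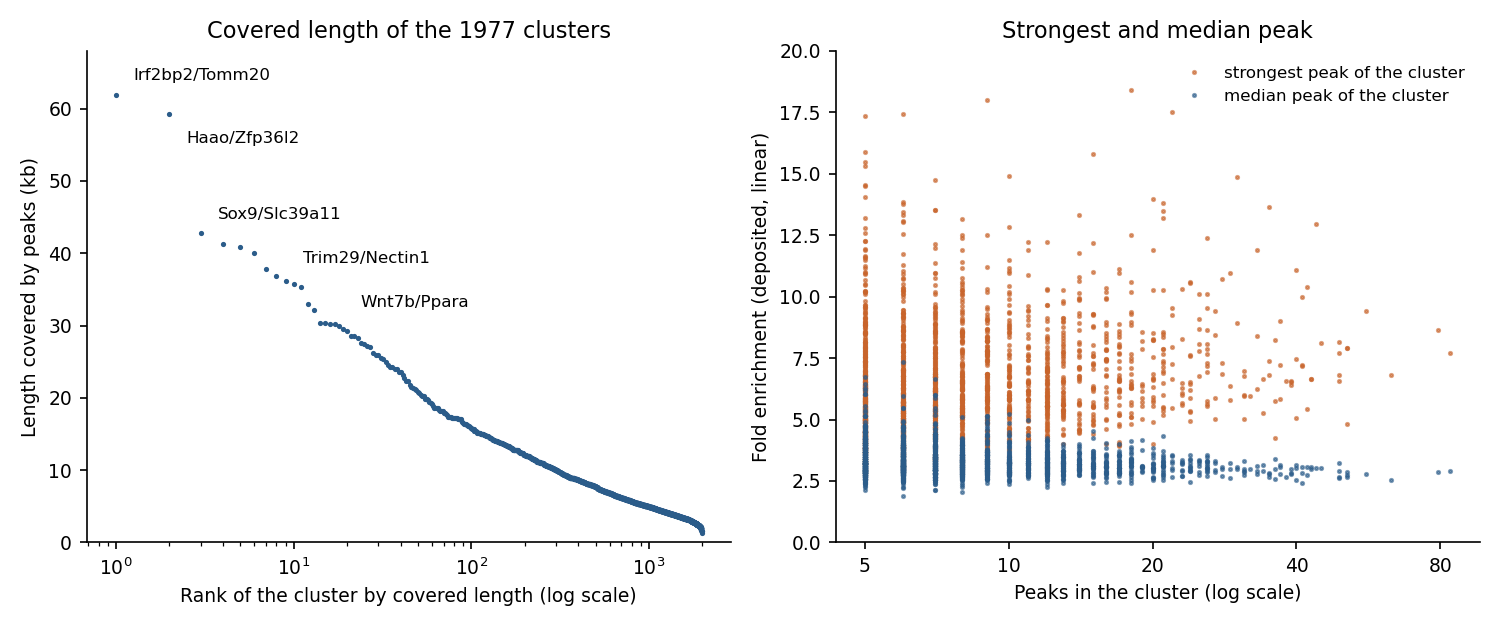
Left, length covered by peaks (kb) against rank (log scale), 1 point per cluster; right, fold enrichment of the strongest (orange) and the median (blue) peak of each cluster against its number of peaks (log scale). The first 2 clusters, at 61.9 and 59.2 kb, stand above the third at 42.8 kb, and the median fold of a cluster, 1.87 to 7.33 over all, varies most among clusters of few peaks.

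The largest cluster lay between Irf2bp2, which encodes a transcriptional corepressor, and Tomm20, a receptor of the mitochondrial import machinery (chr8:126608091-126920061). Its 84 peaks covered 61.9 kb of 312 kb. Their fold ranged from 1.61 to 7.69 with a median of 2.89, and 5 of the 84 exceeded 5-fold. The strongest peak (chr8:126838589-126840199) lay 232 kb from the left end and 90.9 kb from the nearest coding gene. So this cluster was large through many low peaks spread over its whole length.

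The second cluster lay between Haao, an enzyme of tryptophan breakdown, and Zfp36l2, an RNA-binding protein that speeds the decay of AU-rich mRNAs (chr17:83889221-84167809). It had 79 peaks, 59.2 kb covered and a strongest peak of 8.63-fold near its middle. Zfp36l1, a close relative of Zfp36l2, flanked another of the 20 largest, Rad51b/Zfp36l1, with 36 peaks and 30.2 kb covered.

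The third lay 257 kb beyond Sox9, a transcription factor of neural stem cells and astrocytes, and 12.4 kb from Slc39a11, a zinc transporter (chr11:113044725-113232494). Its first summit lay 199 kb from Slc39a11, at the 200 kb limit of the rule. Its left end, its distance from Sox9 and its size are therefore bounded by the rule. Its 63 peaks covered 42.8 kb, and 59 of the 63 summits fell inside lncRNA genes, 2610035D17Rik among them. Its median fold, 2.53, was the lowest of the 20 largest clusters. Both peaks over 5-fold, at 6.80 and 6.51, lay near the Slc39a11 end.

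Further clusters of the 20 lay beside well-studied genes of signalling and transcription. Myo16/Irs2, beside the insulin receptor substrate Irs2, had 56 peaks and 40.05 kb covered. Cebpb/Ptpn1, between a stress-responsive transcription factor and a phosphatase that dampens insulin and leptin signalling, had 43 peaks and 36.8 kb. Wnt7b/Ppara, 9.64 kb from the lipid-sensing nuclear receptor Ppara, had 35 peaks and 29.5 kb. Lrpap1/Adra2c, beside an adrenergic receptor gene, had 39 peaks and 30.4 kb. These were picked from the 20 for what the genes do, and no group of genes was tested among them.

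Within the 20 largest, peaks differed in shape as well as number. Cstad/1700001O22Rik had 37 peaks but 40.9 kb covered, the most per span of the 20 at 25.7%, with one peak 3060 bp wide. Trim29/Nectin1, 97.8 kb from the adhesion gene Nectin1, had 51 peaks of which none exceeded 5-fold (highest 4.83). Wnt7b/Ppara was the opposite, with 7 of 35 peaks over 5-fold and the strongest at 13.7-fold. The other clusters of the 20 were Bod1/Cpeb4, Arap3/Pcdh1, Gm30733/Prex1, Gm6569/Adgrb1, Serp2/Lacc1, Igsf21/Arhgef10l, Ywhaz/Zfp706, Abhd5/Topaz1, Klf13/Gm45988 and Pmepa1/1700021F07Rik, and their strongest peaks ranged from 5.41-fold to 10.0-fold.

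**Figure D2:**
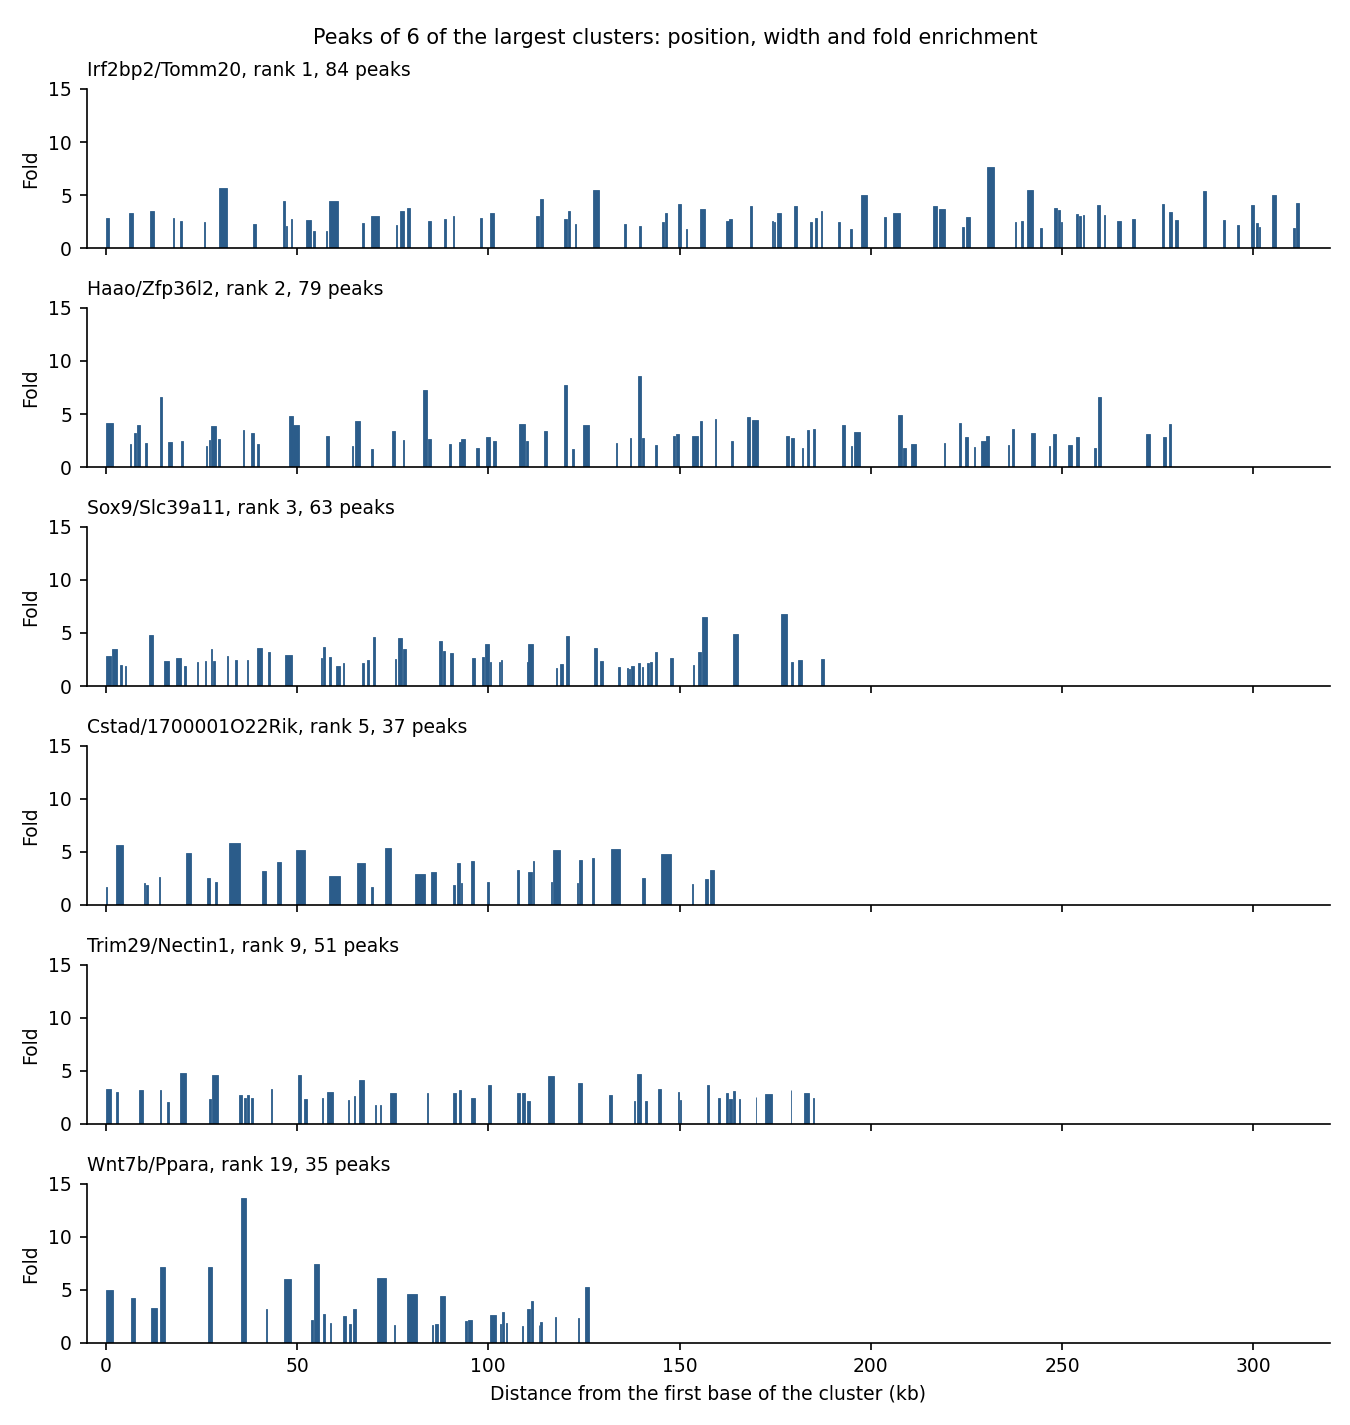
Peaks of 6 of the 20 largest clusters, drawn by distance from the first base of the cluster (kb) and by fold enrichment (deposited, linear), with bar width to scale. Peaks are spread along the whole span in each; Trim29/Nectin1 has none over 5-fold and Wnt7b/Ppara has a single peak of 13.7-fold.

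Height and size ranked different clusters. The strongest single peaks were 18.4-fold in Ier5l/Cstad (18 peaks, rank 175 by covered length), 17.98-fold in Rgs9/Gna13, 17.5-fold in Cdh17/Pdp1, 17.4-fold in Gm40363/Pdia4 and 17.3-fold in Dynlt1b/Gm2808. The last 2 of these had only 6 and 5 peaks and ranked 1911 and 1752. The highest median fold, 7.33, was in Slc1a4/Sertad2, with 6 peaks, against a median of 3.21 over the 1977 clusters; it was looked up after the values were seen.

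Peaks in clusters had a lower fold than eligible peaks outside them, but not a lower −log10 q. In a bulk profile, a mark in few cells and a weak mark in many cells cannot be told apart. Their median fold was 3.16 (quartiles 2.60 and 4.12) for 19199 peaks, against 3.47 (2.82 and 4.62) for the 14806 outside. Peaks over 5-fold made up 14.2% inside and 20.3% outside. Over all autosomal peaks, most of them in or near genes, the median was 3.18-fold and 16.7% exceeded 5-fold, so cluster peaks were close to the whole list. The median −log10 q was 12.55 inside and 12.0 outside, and it was 13.2 in runs of 20 or more. The median fold fell steadily with the size of the run, from 3.54 for single peaks to 3.28 in runs of 5 and 2.98 in runs of 20 or more. The median of each run's strongest peak rose over the same classes, from 3.54 to 5.35 and 7.20, as a maximum over more peaks does. Median width was 566 bp inside and 536 bp outside. The lower fold inside was seen in each of 5 classes of distance to the nearest gene: 3.13 against 3.47 at 10 to 20 kb and 3.13 against 3.39 at 120 to 200 kb.

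**Figure D3:**
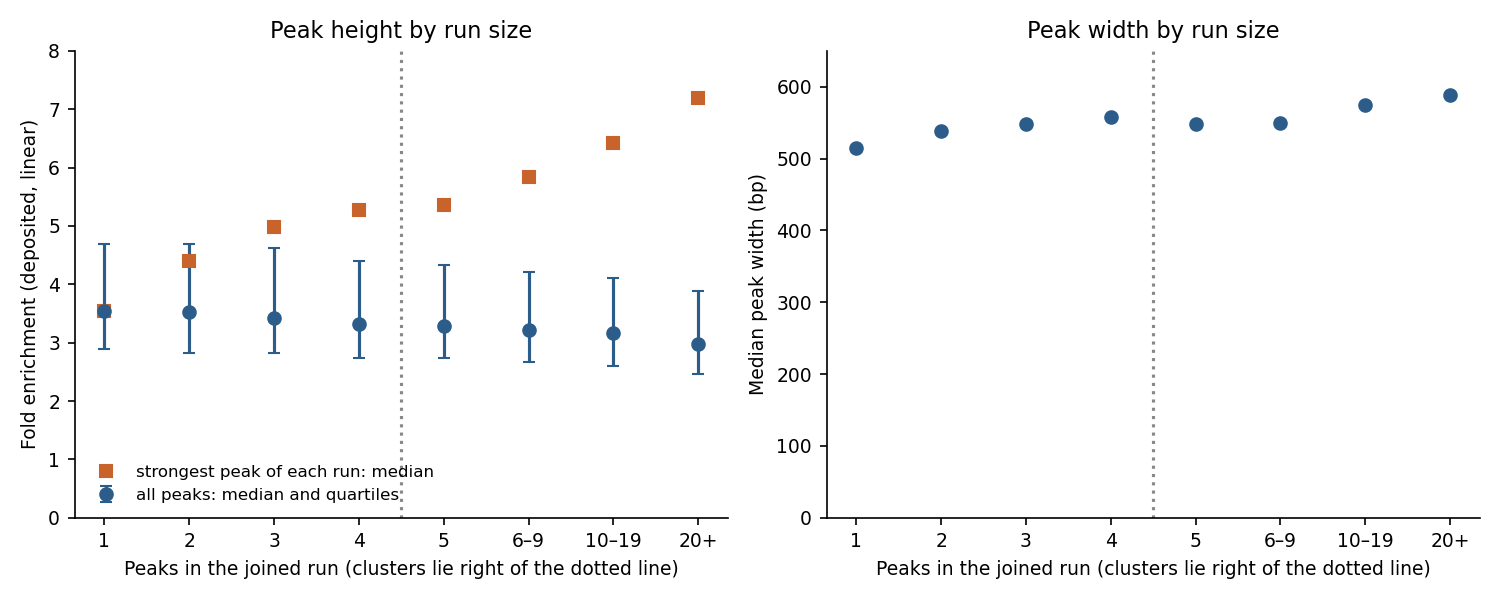
Left, fold enrichment (deposited, linear) by number of peaks in the joined run: blue, median and quartiles of all peaks; orange, median of the strongest peak of each run. Right, median peak width (bp). The median fold falls from 3.54 to 2.98 while the strongest peak rises to 7.20 and width from 515 to 589 bp.

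A minority of clusters belonged to a longer run of peaks that reached a coding gene. When all autosomal peaks were joined by the same gap without regard to genes, 749 of the 1977 clusters (37.9%, 35.8 to 40.05) belonged to a run that also held a peak with its summit inside a coding gene span. This held for 54.9% of the 144 clusters of 20 or more peaks and for 15.2% of the 4383 single eligible peaks. Clusters of more peaks also span more sequence, and the part of length in this rise was not tested. The remaining 62.1% of clusters belonged to runs with no such peak. The median cluster ended 20.1 kb from its nearer coding gene. Of the 1522 clusters whose nearer gene has a start window, 52.2% lay upstream of that gene (49.7 to 54.7), against 53.8% of eligible peaks outside clusters.

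Gaps between coding genes differed in how often they held a cluster. Of 8320 autosomal gaps over 20 kb, 1386 (16.7%) held at least 1. The share was 2.91% for gaps of 20 to 50 kb, 20.0% for 50 to 100 kb, 34.8% for 100 to 200 kb, 39.3% for 200 to 400 kb and 32.2% above. Per megabase of eligible sequence, clusters were densest in gaps of 50 to 100 kb, at 4.05, and sparsest in gaps over 400 kb, at 1.74. Chromosome 9 had 3.47 clusters per eligible Mb and chromosome 7 had 2.00, the highest and lowest autosomes.

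**Figure D4:**
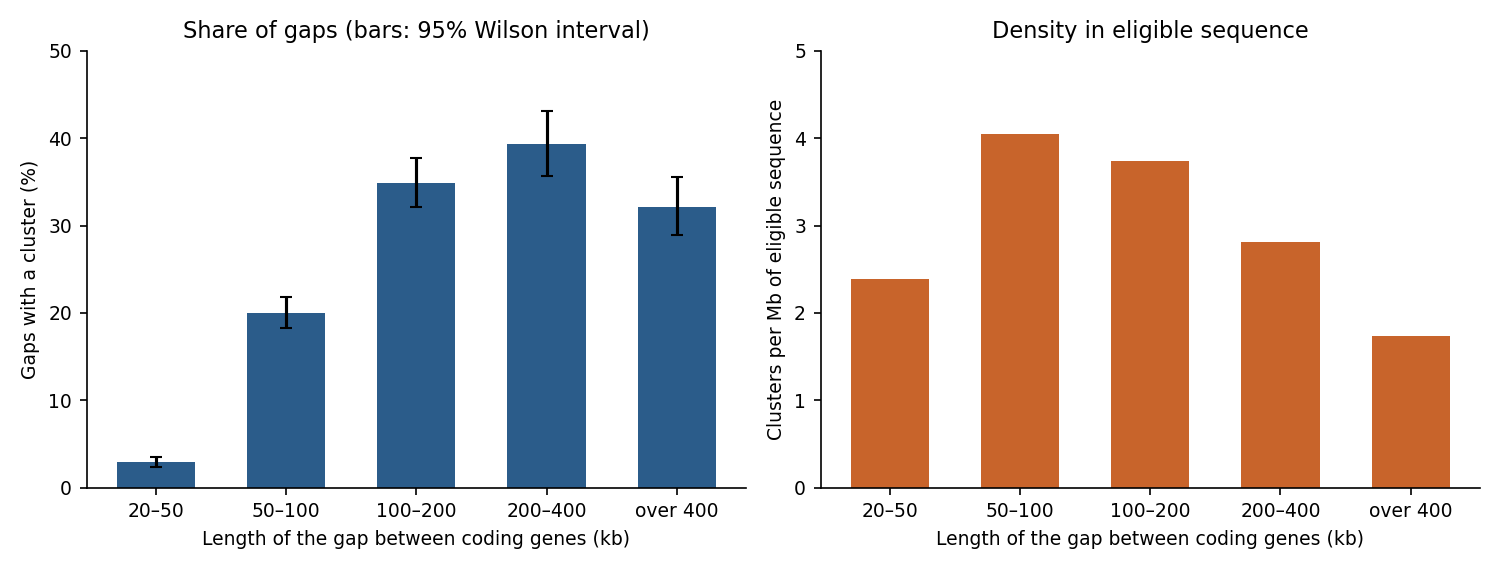
Gaps between coding genes by length: left, percent holding at least 1 cluster with its 95% Wilson interval; right, clusters per Mb of eligible sequence. The share rises to 39.3% at 200 to 400 kb, while the density is highest, at 4.05, in gaps of 50 to 100 kb.

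Some gaps held several clusters: 235 held 2 and 140 held 3 or more. The most, 6, were found in Pik3r1/Cd180, Phlda1/Krr1 and Fam76b/Sesn3. Pik3r1 encodes the regulatory subunit of PI3-kinase. The 569 kb gap before Sox2, the pluripotency and neural progenitor factor, held 5 clusters in which 79 of its 87 eligible peaks lay, covering 43.6 kb; one of these, Dnajc19/Sox2, ended 10.3 kb from Sox2 and overlapped the lncRNA gene Sox2ot. Zfp608 was the nearer gene of 7 clusters, the most of any gene, with 61 peaks and 35.0 kb covered. Ajap1, the transcription factor gene Klf7 and the corepressor gene Tle3 followed with 5 each.

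Next to a cluster, on either side, lay 2497 of 20665 autosomal coding genes (12.1%), which is 21.0% of the 11898 genes beside a gap over 20 kb. "Next to" means that no other coding gene lies between, and the distance can be long: the cluster counted for the protocadherin gene Pcdh7 lay 3507 kb away. The 10 lists of genes were counted against these shares; a long gap offers more room for a cluster, so the median eligible flank of each list is given too.

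Transcription factors of glia and neural stem cells stood highest, with 31 of 57 next to a cluster, or 58.5% of the 53 beside a gap (45.1 to 70.7). Their median eligible flank was 385 kb, against 48.0 kb for all such genes. Among genes with over 400 kb, 18 of 24 of the list (75.0%, 55.1 to 88.0) and 42.2% of all genes (39.1 to 45.4) were next to a cluster. At 200 to 400 kb it was 5 of 12 against 42.0%, so the list was not above the rest in every class. The list also holds factors that neurons express, such as Mef2a, Mef2c and Bcl11b. Sox9 had the largest cluster of the list. Id2, an inhibitor of bHLH factors, had 2 clusters with 44 peaks and 31.8 kb covered. Sox1, a neural progenitor factor, had 2 with 47 peaks and 31.0 kb, and Mef2a had 1 with 24 peaks and 19.6 kb. The Notch target Hes1 had 5 clusters with 38 peaks, and the hedgehog effector Gli2 had 6 with 44.

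Hypothalamic transcription factors were next to clusters in 21 of 66 cases, 35.0% of the 60 beside a gap (24.2 to 47.6), with a median eligible flank of 257 kb. By flank length they stood on both sides of all genes: 2 of 17 against 32.2% at 50 to 200 kb, and 7 of 11 against 42.0% at 200 to 400 kb. The list also holds factors of progenitor and glial cells, Sox2 among them, and of other forebrain regions. Sox2 led with 6 clusters, 91 peaks and 50.5 kb covered. Pbx3 had 3 clusters with 43 peaks, and the interneuron factor Dlx2 had 2 with 39 peaks. Ebf2 had 1 of 16 peaks and 13.2 kb.

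Neuropeptide genes were near the background: 5 of 36, or 20.8% of those beside a gap, with a median eligible flank of 124.5 kb. Pomc, the melanocortin precursor, had 1 cluster of 5 peaks, 12.3 kb away and nearer to Dnmt3a, with a strongest peak of 7.35-fold. Npy had 1 of 5 peaks 131 kb away. Cartpt had 4 clusters with 34 peaks, the largest 304 kb away, and Prok2 had 3 with 39 peaks, the largest 400 kb away and nearer to Rybp. Npvf had 3 with 24 peaks, the largest 112 kb away.

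Receptors of hormones and peptides were next to clusters in 12 of 43 cases, 33.3% of those beside a gap (20.2 to 49.7), with a median eligible flank of 173 kb. With flanks over 50 kb they were close to all genes: 3 of 8 against 32.2% at 50 to 200 kb, 4 of 10 against 42.0% at 200 to 400 kb and 3 of 8 against 42.2% above. Up to 50 kb it was 2 of 10 (5.67 to 51.0) against 6.16%. Those with the most covered sequence in one cluster were the melanocortin receptor Mc3r (12 peaks, 12.7 kb away) and the melanin-concentrating hormone receptor Mchr1 (14 peaks, 14.5 kb). The corticotropin-releasing hormone receptor Crhr1 (11 peaks, 15.1 kb) and the neurotensin receptor Ntsr1 (5 peaks, 11.05 kb, nearer to Mrgbp) followed. Distances were not short throughout the list. Prlr, with 4.85 kb covered against 4.88 kb for Ntsr1, had its cluster 281 kb away, and Nr3c1 223 kb away. Immediate early genes, which neurons switch on within minutes of activity, were next to clusters in 8 of 25 cases, 42.1% of those beside a gap (23.1 to 63.7), with a median eligible flank of 86.4 kb. By flank length it was 1 of 7 up to 50 kb, 4 of 7 at 50 to 200 kb, 1 of 3 at 200 to 400 kb and 2 of 2 above. In 4 of the 25 cases the gene was the nearer one of a cluster. Ier5 had a cluster of 25 peaks 12.1 kb away, and Jun had 3 clusters with 28 peaks. Fos had one of 17 peaks 34.2 kb away, nearer to Jdp2, and Atf3 one of 22 peaks 32.9 kb away, nearer to Nenf.

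Lists of other cell types varied. Oligodendrocyte lineage genes were next to clusters in 8 of 23 cases (44.4% of those beside a gap, median eligible flank 105 kb). They were led by the RNA-binding gene Qk with 5 clusters and 60 peaks. Sox10, with 8 peaks covering 10.7 kb, came next by covered length of a single cluster. Over all their clusters, Olig1 with 12.7 kb and Olig2 with 11.5 kb had more than Sox10. Sox10, Olig1 and Olig2 are counted in this list and among the glial factors. Astrocyte and tanycyte genes were next to clusters in 5 of 24 cases (38.5% of the 13 beside a gap, 17.7 to 64.5, median flank 121 kb). Glul, glutamine synthetase, had 3 clusters with 55 peaks and 39.1 kb, one of them with a peak of 14.9-fold. The glutamate transporter gene Slc1a3 had 2 with 14 peaks. Microglia and endothelial genes stood at 4 of 25 (21.1% of the 19 beside a gap, median flank 132 kb). Among them were Cdh5 of vessel cells (16 peaks, 24.4 kb away) and the microglial factor Sall1 (5 clusters, 35 peaks). Axon guidance and adhesion genes stood at 10 of 53 (20.8% of the 48 beside a gap), although their median eligible flank was 760 kb. With over 400 kb, 8 of 36 were next to a cluster (22.2%, 11.7 to 38.1), against 42.2% of all genes. Genes of other organs stood at 2 of 29 (11.8% of the 17 beside a gap, median flank 38.6 kb), Tnp1 and Mb.

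**Figure D5:**
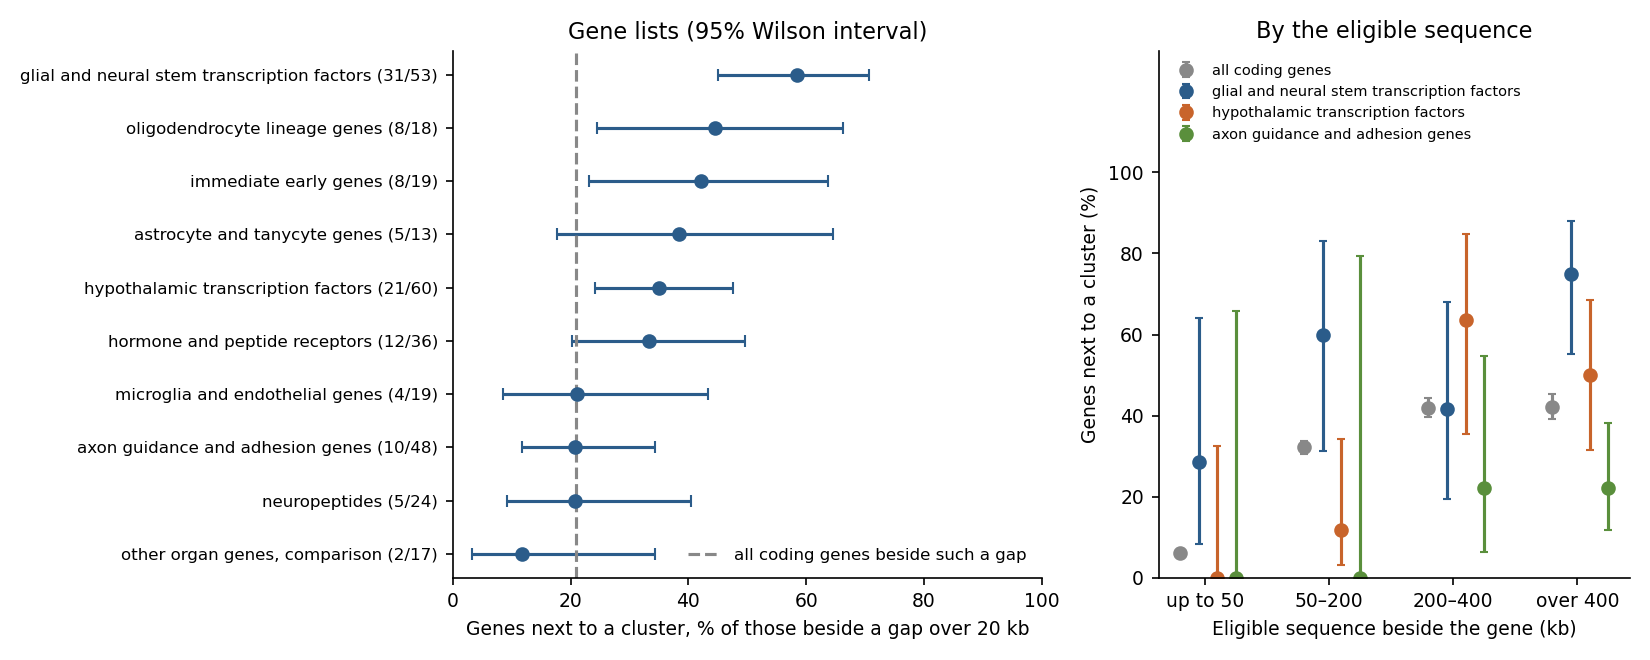
Left, percent of each list's genes beside a gap over 20 kb that lay next to a cluster, with 95% Wilson intervals; the dashed line is 21.0%, all coding genes. Right, the same by eligible sequence beside the gene for 3 lists and all genes: glial and neural stem transcription factors reach 75.0% over 400 kb, and axon guidance and adhesion genes 22.2%.

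Starts of the neighbouring genes were positions of the same list that the choice of clusters did not use, since gene spans and their 10 kb flanks were left out. A peak overlapped a start window in 1618 of 1919 genes next to a cluster (84.3%, 82.6 to 85.9) and in 4288 of 7523 genes beside a gap but next to no cluster (57.0%, 55.9 to 58.1). The peaks at these starts were lower beside clusters, with a median of 8.29-fold (quartiles 5.67 and 11.3) against 9.59-fold (6.57 and 12.8). For the nearer genes of the 100 largest clusters the median was 6.94-fold over 59 starts with a peak. Thus neighbours of clusters had a start peak more often but a lower one where present.

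Noncoding genes ran through most clusters. An lncRNA gene overlapped 1100 clusters (55.6%), 97 of the 100 largest and each of the 20 largest, and longer spans have more chance of an overlap. Per peak, 27.5% of summits in clusters lay in an lncRNA gene (26.9 to 28.2), against 18.9% of eligible summits outside (18.3 to 19.5). The fold was alike inside and outside lncRNA genes, with medians of 3.17 and 3.16 among cluster peaks. At lncRNA starts it differed: 547 cluster peaks over a start window had a median of 3.94-fold and 906 bp, against 3.14-fold and 560 bp for the other 18652. In 113 of 440 clusters with such a peak (25.7%) it was the strongest of its cluster. No share for other peaks is given beside this, and in clusters of few peaks any peak is often the strongest. A wider peak also overlaps a start window more easily, and the part of this in the differences was not tested.

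The lncRNA starts under cluster peaks held fewer CpGs than those under peaks elsewhere, and slightly more than those without a peak. The 623 windows had a median of 5 CpGs and 51.7% G and C, and 16.5% held 10 or more CpGs. The 3045 lncRNA starts with a peak elsewhere had a median of 10 CpGs and 56.0% G and C, and 51.1% held 10 or more. Those elsewhere include starts in or near coding genes, where by rule no cluster lies. Distal starts under peaks outside clusters are not given apart. The part of distance from coding genes in the CpG numbers and motif shares was therefore not tested. Starts without a peak had a median of 4 CpGs in cluster spans, where 3.88% held 10 or more, and of 3 elsewhere, where 6.88% did. Over all 11310 lncRNA starts the median was 4. The 9330198N18Rik window, with 3 CpGs, and the 9530059O14Rik window, with 38, are both under peaks of large clusters. The letters CAGCTG, an E-box bound by bHLH factors, occurred on either strand in 24.7% of windows under cluster peaks (21.5 to 28.3), 21.7% of those with a peak elsewhere, 17.6% of the 11310 lncRNA starts and 16.3% of all 31365 RefSeq starts of the same length. ACAATG, letters bound by SOX factors, occurred in 17.3%, 10.2%, 15.3% and 12.2% of the same 4 groups. TGANTCA, the AP-1 motif, occurred in 10.8%, 6.27%, 9.25% and 7.85%. In starts elsewhere without a peak CAGCTG occurred in 15.4%, ACAATG in 17.4% and TGANTCA in 10.2%, and in starts of cluster spans without a peak in 14.8%, 15.5% and 11.04%, so the last 2 motifs were about as frequent without a peak as under cluster peaks. In the 4 groups above, TAATTA, a homeodomain motif, occurred in 5.14%, 2.66%, 6.67% and 5.27%. CCGGAAGT, the ETS motif, occurred in 1.44% under cluster peaks and in 3.19% of those with a peak elsewhere. For the other 7 of 12 motifs searched, the shares under cluster peaks and with a peak elsewhere were 3.69% and 2.43% for the E-box CATATG, 2.09% and 1.77% for the CRE TGACGTCA, and 14.9% and 13.7% for the RFX letters GTTGCC. They were 46.5% and 47.4% for the NFI letters TTGGC, 1.12% and 1.31% for the POU motif ATGCAAAT, 4.33% and 3.19% for the FOX motif TGTTTAC, and 0.803% and 0.230% for the NR5A motif TCAAGGTCA. Base composition differed between these groups, and its part in the motif shares was not tested.

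Antigen receptor loci held 4 clusters, overlapping receptor gene segments, which the coding gene spans do not include. One of the 2 in the Gm36448/Dad1 gap, on the T-cell receptor alpha locus (chr14:54143719-54219688), had 24 peaks, 11.9 kb covered and 62 segments within it. Its strongest peak was 6.20-fold. Tmem121/Adam6b, on the immunoglobulin heavy chain locus, had 17 peaks with a highest fold of 5.57. Of 5 markers of blood cells, 1 had a peak within 1 kb of its span. By the same measure a peak was found at 12 of 13 hypothalamic markers, all but Pmch, and at 1 of 6 pituitary markers. It was found at all 8 neuronal, 4 oligodendrocyte, 4 astrocyte, 4 microglial and 4 endothelial markers. The share of all coding genes by this measure is not given, so the marker counts do not show which cells were present. By a narrower measure, a peak over a start window, it was 67.1% of 16457 autosomal coding genes.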

How the data were processed

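H3K27ac was measured by bulk CUT&Tag in 3 samples, grouped by title; Paired-Tag data are not analysed here. The authors deposited 1 peak list with per peak a summit offset, score, linear fold ratio, −log10 p-value and −log10 q-value. Per the submitters' processing notes, build mm10 and the tools UMI-tools 1.1.4, STAR 2.7.10a, cutadapt 4.5, BWA 0.7.17 and MACS2 were used. Not given in the sources used here are their settings, the peak background and how replicates were combined. Peak names run to 295763 but the list has 183678 lines, so it is a part of a longer list.

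Genes were 20665 autosomal protein-coding spans of the RefSeq table. Clusters were made with Python 3.11.15, pandas 2.3.3 and numpy 2.4.6, tested on simulated peaks. A start window counted as having a peak at 1 bp of overlap. Motif counts over peaks, planned first, need a genome and were made on RefSeq start windows, on both strands. Named clusters were the 20 of most covered sequence, the 5 with most peaks and the 5 with the highest fold; per list, genes were those beside the largest clusters, plus some chosen after their values were seen (Hes1, Gli2). Clusters and lists were chosen with earlier results of these data known. All comparisons are descriptions without a test; coordinates are 1-based.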

Additional observations from a re-analysis of the deposited data

Results flagged for a closer look

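The rule left out the X chromosome. By the same steps it gave 19 clusters there, holding 218 of 635 eligible peaks (34.3%, against 56.5% on the autosomes). The largest (chrX:99481851-99613075) had 32 peaks covering 21.4 kb. This is a signal in data that the comparisons above do not use, and the difference between X and autosomes was not tested.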

How the results depend on the processing

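The number of clusters, 1977, fell to 946 with at least 8 peaks, to 588 and 633 when only peaks at or above the list's median −log10 q or median fold were kept, and to 1219 when lncRNA genes also set the distance; the other 7 alternatives gave 1401 to 2718. The share of eligible peaks in clusters, 56.5%, was 31.0% and 71.0% with joining gaps of 6 and 25 kb, 65.2% and 38.9% with at least 4 and 8 peaks, 57.2% with summits at least 25 kb outside, 54.6% without an upper limit, 26.6% and 22.7% with the 2 stricter peak sets, 54.9% with gaps between summits and 42.3% with lncRNA genes. Of the 20 largest clusters, the top 20 overlapped 7 and 13 with gaps of 6 and 25 kb, 12 without an upper limit, 12 and 4 with the stricter q and fold sets, and 2 with lncRNA genes; the other 7 alternatives overlapped 15 to 20. Counting only the nearer gene gave 1554 genes in place of 2497. The lower median fold inside clusters held under all 11 alternatives to the cluster rule, and the median width difference, 30.0 bp, turned to -6.0 bp with a gap of 6 kb. Hypothalamic transcription factors next to a cluster fell from 21 to 5 and 6, and glial and neural stem ones from 31 to 17 and 17, with the stricter q and fold sets, where all genes fell from 12.1% to 4.54% and 4.88%. Use of curated coding genes alone, and the counts of list genes and of fold and width under each setting, were added after seeing the data. No paired analysis was possible because the results come from no test and the 3 samples share 1 list. Depth is unknown, so a region without a peak had none in this list.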
